A study of Mus musculus with 9 samples.

Results

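Mouse embryonic stem cells exposed to BRD0705 for 30 min were compared with control cells of the same experiment. The members are the 3 BRD0705 and 3 control RNA sequencing libraries, 6 of the 9 in the series, and 15366 of the 52264 rows of the count table passed the low-count filter and were tested. All groups carried the genotype label beta-catenin-/-. Per the labels, the cells were grown on feeder treated dishes and expanded with CHIR-99021, PD03 and LIF, and were moved to N2B27 medium overnight, without any mention of those additives there. BRD0705 or CHIR was then given for 30 min, at doses that the labels leave out, and the titles call the controls untreated. The labels name no clone, and they do not say whether replicates came from separate cultures. The p-values therefore measure only the spread between these libraries, which may be technical. All groups had been expanded in the presence of CHIR-99021, the control included.

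GSK3α, encoded by Gsk3a, and GSK3β, encoded by Gsk3b, are related serine/threonine kinases that are active in unstimulated cells. They phosphorylate β-catenin, which leads to its degradation, and also glycogen synthase, Myc proteins, sterol regulators, clock proteins and microtubule-associated proteins. BRD0705 is an inhibitor with selectivity for GSK3α, and CHIR-99021 inhibits both enzymes. In embryonic stem cells, inhibition of GSK3 is part of the culture conditions that hold the naive state, largely through β-catenin and the repressor Tcf7l1. A deletion of β-catenin removes that route, and the comparison asks which transcripts respond to GSK3α inhibition without it.

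The 3 genes that define the experiment were read in every library. Gsk3a, on mm10 chromosome 7 from 25228258 to 25237851, was at 225, 181 and 200 CPM (read counts scaled for library size) in the control libraries and 242, 212 and 202 CPM with BRD0705. Gsk3b, on chromosome 16 from 38089001 to 38246084, was at 74.9, 82.2 and 78.2 CPM in control and 86.7, 92.2 and 77.5 CPM with BRD0705. The ranges of the groups overlapped for both genes, and neither log2 fold change (0.12 ± 0.08 for Gsk3a and 0.12 ± 0.06 for Gsk3b, SE) passed the quasi-likelihood test of edgeR (p 0.524 and 0.369 after Benjamini-Hochberg adjustment across the tested genes). That test, 2-sided and at an adjusted p under 0.05, is the one behind every adjusted p given here unless another tool is named. Ctnnb1, the gene of the genotype label, was at 348, 350 and 331 CPM in control and 303, 331 and 354 CPM with BRD0705 (log2 fold change -0.06 ± 0.06, adjusted p 0.697). Its exons overlap those of another row on the same strand, and such rows, together with repeated symbols, are called below rows that can share reads. The counts do not tell exons apart, and no unedited cells were analysed here, so the genotype is given as labelled.

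Libraries held 17359422 to 20773337 counts. Embryonic stem cell markers summed to 5006 to 5105 CPM in control and 5064 to 5210 CPM with BRD0705, with a median log2 fold change of -0.027 over the 10 genes. Primitive endoderm, mesoderm, neural and trophoblast markers summed to at most 134 CPM in any of the 6 libraries, with Foxa2, Sox17, Mixl1, Gsc, Mesp1, Cdx2 and Elf5 below the count filter. Fibroblast markers, which feeder cells express, were higher with BRD0705. Their mean log2 CPM was 6.21, 6.05 and 6.11 in control, 6.38, 6.32 and 6.37 with BRD0705, and 6.41, 6.44 and 6.13 with CHIR. The BRD0705 and control values did not overlap, and the difference of 0.236 had an exact permutation p of 0.1, the smallest that 3 against 3 libraries allow (2-sided). The fold changes of 11 of the 12 markers were above 0, against 49.0% of all tested genes. Col1a1 and Lox passed the test, as did 1.22% of all tested genes. In bulk RNA, more cells of a type and more RNA per cell cannot be told apart.

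**Figure D1:**
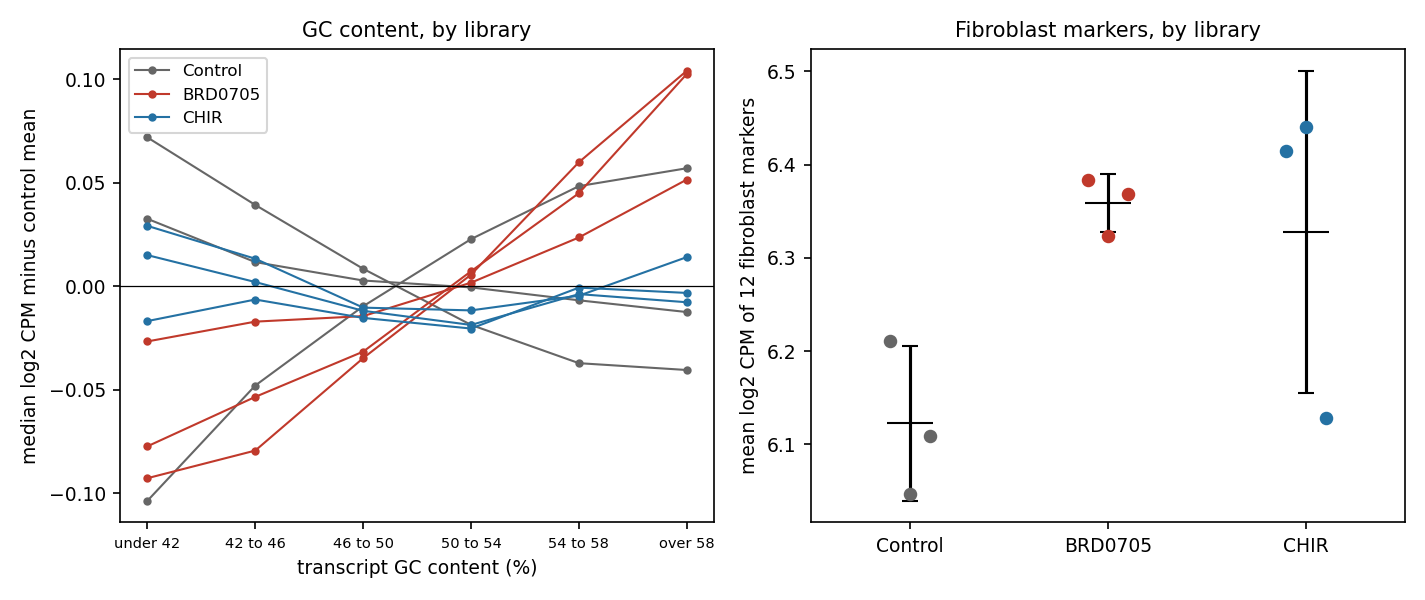
Left, median over genes of log2 CPM minus the control mean (y axis) by transcript GC content in % (x axis), with a line for each library. Right, mean log2 CPM of the 12 fibroblast markers, with a point for each library and bars for the mean ± SD (n = 3). All 3 BRD0705 lines and that of control replicate 1 rise with GC content, and the BRD0705 marker values (6.32 to 6.38) lie above the control values (6.05 to 6.21).

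Few transcripts passed the test, and their changes were small. In simulated counts the fit called 34.9% of log2 changes of 0.3 and 66.9% of those of 0.5. Further changes of that size can therefore have gone uncalled. Of the 15366 genes tested, 106 were higher (0.690%) and 82 lower (0.534%), 188 in all (1.22%). Their absolute log2 fold changes had a median of 0.32, with 19 of at least 0.5 and 4 of at least 1. Genes that rose included Zfp469, Lefty1, Kirrel2, Csf1, Snai1 and Ccl7, which encode regulators of transcription, signalling proteins and an adhesion molecule. Genes that fell included Ndufb4c, Rps27rt, Slirp and Gtf2e2, and transcripts of ribosomal proteins and respiratory chain subunits. Without adjustment, 2436 genes (15.9%) had a p under 0.05, 1194 higher (7.77%) and 1242 lower (8.08%). All 188 genes had CPM values that did not overlap between the 6 libraries, as did 20.2% of all tested genes (9.83% with BRD0705 higher and 10.4% lower).

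The number of calls rested on single libraries. It was 21 without BRD0705 replicate 1, 55 without BRD0705 replicate 2, 37 without control replicate 2 and 51 without control replicate 3, but 305 without BRD0705 replicate 3 and 292 without control replicate 1. Of the 188 genes, 16 passed in all 6 of these fits. Among them Lefty1, Kirrel2, Csf1, Ccl7, Dusp1, Pmepa1, Ngfr, Bhlhe40, Map7d1 and Arpc4 were higher, and Slirp, Gtf2e2, Rpl23, Gm49450 and Gm20390 were lower. Of the other genes named above, Ndufb4c passed in 4 fits, Snai1 in 3, Rps27rt in 1 and Zfp469 in 0. With the fibroblast marker score as a covariate all 188 kept their sign and 169 had an unadjusted p under 0.05, but 0 of the tested genes passed the adjusted threshold in edgeR (1370, or 8.92%, before adjustment). Rpl23 then came closest, at an adjusted p of 0.0804. Since the score does not overlap between the groups, feeder RNA and treatment cannot be told apart in that fit.

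**Figure D2:**
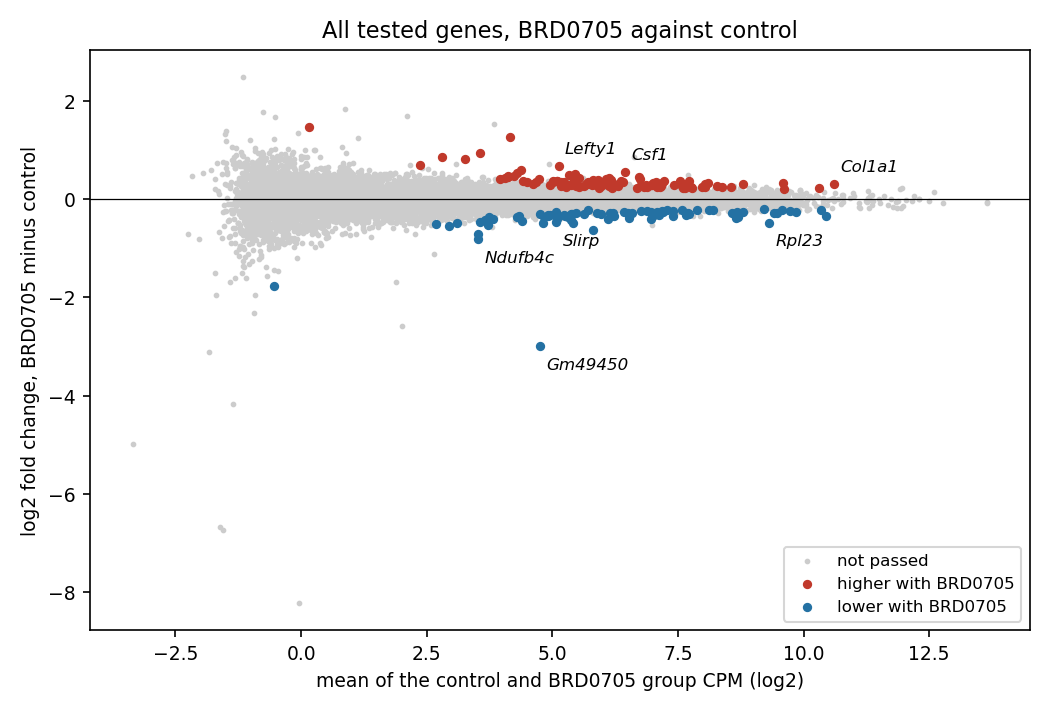
Log2 fold change of BRD0705 minus control (y axis) against the log2 of the mean CPM of the control and BRD0705 groups (x axis) for the 15366 tested genes, with a point for each gene. Red points are the 106 genes that were higher and blue points the 82 that were lower at an adjusted p under 0.05; grey points did not pass.

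Lefty1 and Pmepa1, genes of the Nodal and transforming growth factor β (TGF-β) pathway, rose, and each passed with any library left out. In this pathway ligands such as Nodal activate receptor kinases and SMAD transcription factors, and Lefty proteins are secreted antagonists of Nodal that its own signal induces. Lefty1, on mm10 chromosome 1 from 180935022 to 180938401, was at 28.8, 24.8 and 27.2 CPM in control and 40.0, 40.0 and 48.7 CPM with BRD0705 (log2 fold change 0.67 ± 0.10, adjusted p 0.0037). Every BRD0705 library was above every control library. Groups were apart for all 188 called genes and for 20.2% of all tested genes. Pmepa1, a membrane protein that restrains TGF-β signalling, lies on chromosome 2 from 173224458 to 173276731 and rose from 59.8, 58.1 and 60.1 to 76.0, 78.9 and 85.2 CPM (log2 fold change 0.43 ± 0.06, adjusted p 0.0041).

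Of the 20 tested genes on the TGF-β and Nodal list, on which Pmepa1 does not stand, 2 rose, Lefty1 among them, 0 fell and 18 did not pass, and 13 had a fold change above 0. Without control replicate 1, 4 passed. Over all tested genes 0.690% rose and 49.0% had a fold change above 0. The list's median log2 fold change was 0.12, against -0.0038 over all tested genes, 0.11 after a correction for GC content and length, and 0.071 with the fibroblast covariate. Lefty2, the paralog of Lefty1, was at 391 CPM in control and 460 CPM with BRD0705 (log2 fold change 0.24 ± 0.07, adjusted p 0.0859). The ligand Nodal itself was at 61.8 ± 3.43 CPM in control and 53.1 ± 3.06 CPM with BRD0705 (SD, n = 3 each), with a log2 fold change of -0.22 (adjusted p 0.0978). The inhibitory Smad7 was at 95.6 ± 5.14 and 102 ± 3.70 CPM (adjusted p 0.461). Of the 17 genes on the BMP and Id list, the other branch of the same receptor family, 0 passed the test in edgeR, DESeq2 or limma voom, and 2 had an unadjusted p under 0.05. DESeq2 gave some genes no adjusted p, and such genes count as not called wherever its calls are given.

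Immediate early genes, which cells transcribe within minutes of a stimulus without new protein synthesis, held the most risers of any list. Of 28 tested, 5 rose (Fosl1, Junb, Jund, Nr4a1 and Dusp1), 2 fell (Klf6 and Sgk1) and 21 did not pass. Over all tested genes 0.690% rose and 0.534% fell. The list's median log2 fold change was 0.11, with 20 of 28 above 0 (49.0% of all tested genes), and 0.043 with the fibroblast covariate. The promoters of the risers are shown because these genes are known for rapid control through cyclic AMP response elements (CRE), which the factor CREB binds. For 4 of the 5 a promoter was found in the RefSeq table, and Fosl1 had no entry. The 250 bases before the annotated start are given for the 3 that hold the CRE core TGACG on either strand, written 5′ to 3′ along the gene, with the core in capitals (CGTCA is the core on the other strand).
Dusp1 (GRCm38.p6 chr17:26508473-26508722, minus strand): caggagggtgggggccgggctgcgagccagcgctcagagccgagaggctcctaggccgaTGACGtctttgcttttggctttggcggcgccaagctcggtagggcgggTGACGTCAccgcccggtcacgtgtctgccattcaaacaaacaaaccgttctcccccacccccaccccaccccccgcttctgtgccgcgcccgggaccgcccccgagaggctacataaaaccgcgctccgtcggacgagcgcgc
Junb (GRCm38.p6 chr8:84978749-84978998, minus strand): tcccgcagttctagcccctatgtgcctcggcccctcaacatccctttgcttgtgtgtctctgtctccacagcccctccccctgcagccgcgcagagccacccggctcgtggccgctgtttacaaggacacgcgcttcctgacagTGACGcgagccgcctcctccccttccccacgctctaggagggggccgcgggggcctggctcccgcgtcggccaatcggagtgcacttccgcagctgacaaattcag
Nr4a1 (GRCm38.p6 chr15:101266596-101266845, plus strand): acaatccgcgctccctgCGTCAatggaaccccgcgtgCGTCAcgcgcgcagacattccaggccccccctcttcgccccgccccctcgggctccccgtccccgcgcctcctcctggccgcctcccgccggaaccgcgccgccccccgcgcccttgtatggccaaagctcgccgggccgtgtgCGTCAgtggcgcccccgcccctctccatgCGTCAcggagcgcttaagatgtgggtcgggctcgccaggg

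The Dusp1 window held the core at positions -191, -143 and -140 from the start, the last 2 forming a full palindromic site TGACGTCA. The Junb window held it at -106, and that of Nr4a1 at -233, -213, -69 and -40. The window of Jund held none. Of the 23 tested immediate early genes with a window, 11 (47.8%) held the core, against 26.2% of the 11438 tested genes with a window and 17.9% of all 27025 windows. Among the genes called higher it was 20.7% of 82, and among those called lower 30.9% of 55. The other motifs searched, on both strands, were the GC box GGGCGG, the TATA box TATAAA and the CArG box, along with the full TGACGTCA. Among immediate early genes their shares were 78.3%, 21.7%, 8.7% and 8.7%, against 58.7%, 6.53%, 1.07% and 2.68% of the tested genes, so the core was not the only motif with a higher share there. These are counts of letters in a fixed window and show no binding.

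Dusp1, a phosphatase that inactivates MAP kinases, was at 96.0, 86.3 and 87.0 CPM in control and 123, 119 and 125 CPM with BRD0705 (log2 fold change 0.45 ± 0.06, adjusted p 0.00127), and passed with any library left out. Fosl1, an AP-1 subunit, rose from 15.9, 13.3 and 14.6 to 23, 18.6 and 18.9 CPM (0.47 ± 0.09, adjusted p 0.0192). The AP-1 subunit Junb rose from 37.1, 37.7 and 37.8 to 45.2, 49.0 and 47.1 CPM (0.33 ± 0.07, adjusted p 0.0241). The groups did not overlap for any of these genes, as for all 188 called genes and 20.2% of all tested genes. Jund was at 72.0, 73.9 and 71.1 CPM in control and 86.8, 87.3 and 107 CPM with BRD0705, the highest value being that of replicate 3 (0.37 ± 0.08, adjusted p 0.0251). The orphan nuclear receptor Nr4a1 was at 107, 91.0 and 96.3 CPM in control and 129, 116 and 117 CPM with BRD0705 (0.30 ± 0.07, adjusted p 0.0368). Of these, Fosl1, Junb, Jund and Nr4a1 lost their calls without BRD0705 replicate 1 or control replicate 2 or 3, and Junb and Nr4a1 also without BRD0705 replicate 2.

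The transcription factor Klf6 fell from 41.4, 45.1 and 39.1 to 32.7, 35.3 and 33.0 CPM (log2 fold change -0.32 ± 0.07, adjusted p 0.0269), and the kinase gene Sgk1 from 125, 133 and 126 to 114, 109 and 103 CPM (-0.23 ± 0.05, adjusted p 0.0452). Klf6 kept its call without control replicate 1 or 3, and Sgk1 in 1 of the 6 fits. The classic members were low or close to control. Fos was at 3.10 ± 0.421 CPM in control and 3.47 ± 0.622 CPM with BRD0705 (SD, n = 3 each, adjusted p 0.762), Egr1 at 4.0 ± 0.596 and 5.55 ± 0.686 CPM (adjusted p 0.121), and Ier2 at 115 ± 5.06 and 122 ± 2.99 CPM (adjusted p 0.422). For the whole list, the number called was 1 without BRD0705 replicate 1, 3 without BRD0705 replicate 2, 1 without control replicate 2, 2 without control replicate 3, and 3 after the GC and length correction.

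Csf1, the growth factor of macrophages, on mm10 chromosome 3 from 107741048 to 107760469, was at 77.7, 65.0 and 69.7 CPM in control and 108, 103 and 102 CPM with BRD0705 (log2 fold change 0.56 ± 0.06, adjusted p 0.000569). The chemokine Ccl7 rose from 38.5, 35.1 and 34.2 to 54.5, 50.2 and 50.2 CPM (0.52 ± 0.07, adjusted p 0.00134). Both passed with any library left out. Ngfr, the p75 neurotrophin receptor, was at 135, 125 and 131 CPM in control and 173, 162 and 170 CPM with BRD0705 (0.37 ± 0.05, adjusted p 0.0041). The groups were apart for each of these genes, as for all 188 called genes and 20.2% of all tested genes.

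Slit3, a secreted guidance cue, and Penk, the precursor of enkephalin, rose by log2 fold changes of 0.44 ± 0.09 and 0.43 ± 0.10 (adjusted p 0.0227 and 0.0464). Slit3 lost its call without BRD0705 replicates 1 or 2 or control replicates 2 or 3, and Penk without any 1 library. Of the 20 tested genes on the NF-κB and chemokine list only Ccl7 passed. The list's median log2 fold change was 0.15 (0.049 with the fibroblast covariate), with 16 of 20 above 0. Over all tested genes 1.22% passed and 49.0% were above 0. Ccl2, the neighbour of Ccl7 in function, was at 61.8 CPM in control and 68.1 CPM with BRD0705 (adjusted p 0.39). Genes outside the naming rule, picked after their values were seen, included Hbegf (0.32, adjusted p 0.0419), the urokinase receptor Plaur (0.34, adjusted p 0.036), Epha2 (0.25, adjusted p 0.0365), the NF-κB cofactor Bcl3 (0.40, adjusted p 0.0092) and Traf4 (0.31, adjusted p 0.00587), all higher and called in 1, 2, 3, 4 and 5 of the 6 fits with a library left out, in that order.

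Of the 12 fibroblast markers 2 rose, against 0.690% of all tested genes, both with roles in the extracellular matrix. Col1a1, the chain of type I collagen that defines fibroblasts, was at 1574, 1287 and 1302 CPM in control and 1781, 1706 and 1672 CPM with BRD0705 (log2 fold change 0.31 ± 0.07, adjusted p 0.0405). Lox, which cross-links collagen, was at 710, 694 and 644 CPM in control and 854, 913 and 811 CPM with BRD0705 (0.33 ± 0.08, adjusted p 0.0452). Control replicate 1 was the highest control library for both. Further matrix genes, picked after their values were seen, were Col5a1 (0.32, adjusted p 0.0342), Hspg2 (0.25, adjusted p 0.0488) and Ltbp2 (0.31, adjusted p 0.0395). Col1a1 and Lox passed without BRD0705 replicate 3 or control replicate 1 and in none of the other 4 fits, and Col5a1, Hspg2 and Ltbp2 in 2, 1 and 2 of the 6. Snai1, the repressor of epithelial genes that fibroblasts also express, rose from 18.8, 14 and 15.1 to 24.2, 22.6 and 22.6 CPM (0.54 ± 0.10, adjusted p 0.0118), a call lost without BRD0705 replicate 1 or control replicate 2 or 3. The summed CPM of the 12 fibroblast markers was 2867 to 3331 in control and 3585 to 3704 with BRD0705. The part of feeder RNA in these rises, and in those of Csf1, Ccl7, Slit3 and Ngfr, was not tested.

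**Figure D3:**
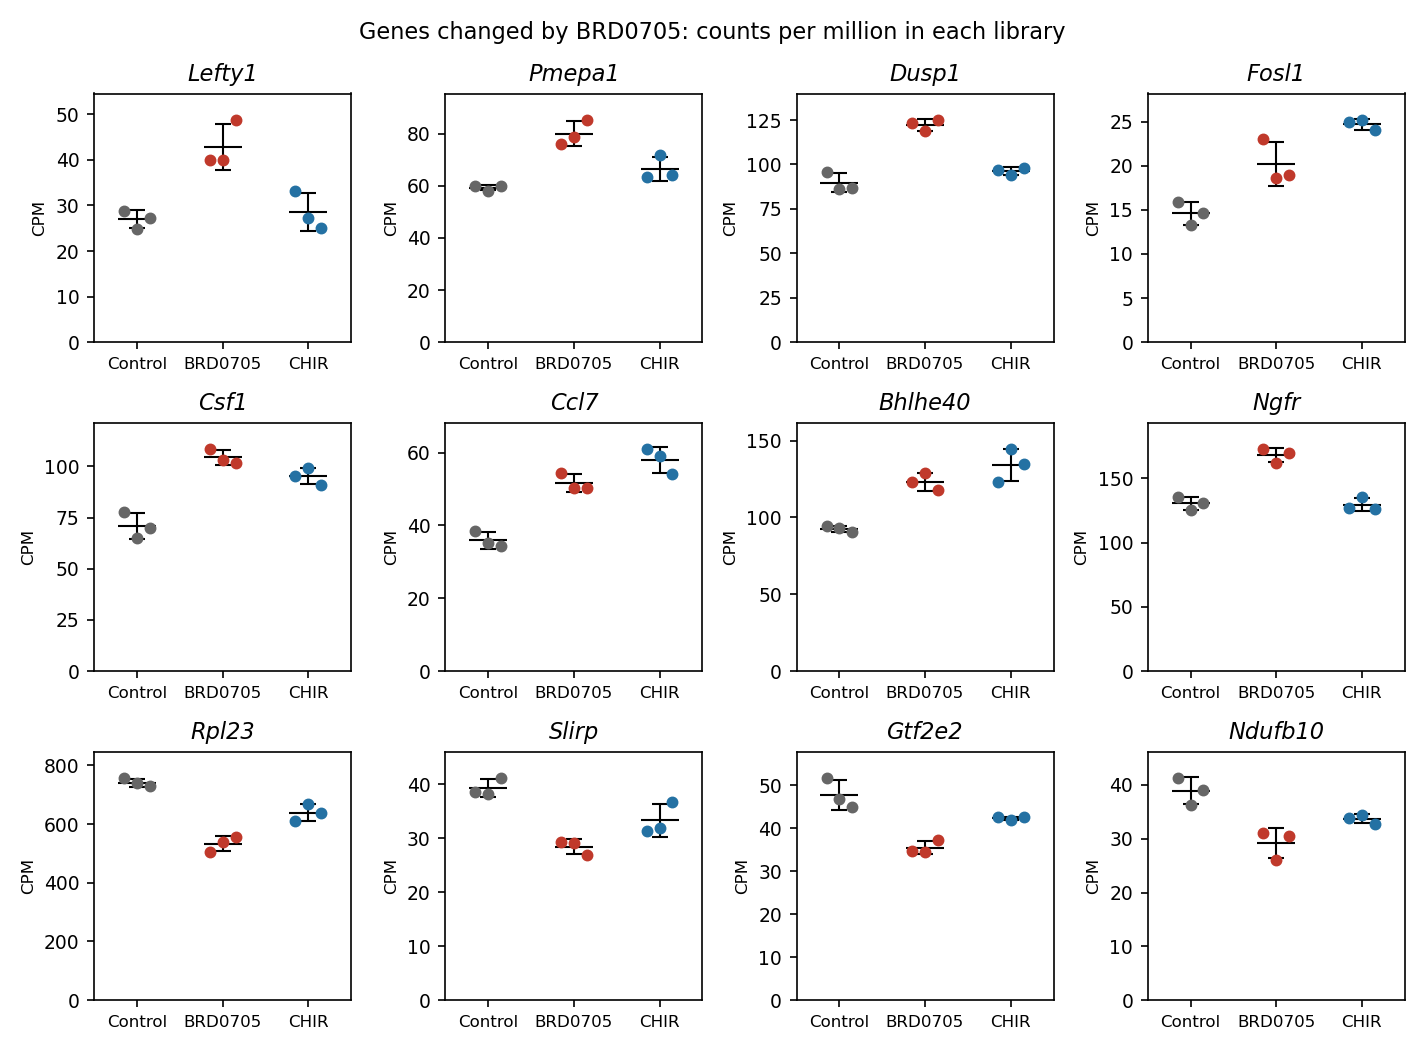
CPM (y axis, from 0) of 12 genes in each library of the 3 groups (x axis). Points are libraries and bars the mean ± SD (n = 3). For each gene the BRD0705 libraries lie outside the range of the control libraries, as for all 188 called genes and 20.2% of all tested genes. For Lefty1, Dusp1 and Ngfr the CHIR libraries lie near control, as in Ngfr at 127, 135 and 126 CPM against 135, 125 and 131 CPM.

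Circadian clock genes on the list rose in 2 of 18 cases, against 0.690% of all tested genes. A fold change above 0 was found for 14 of 18, against 49.0% of all tested genes. Bhlhe40, a repressor of the clock's activators, was at 94.2, 93.4 and 90.6 CPM in control and 123, 129 and 118 CPM with BRD0705 (log2 fold change 0.41 ± 0.06, adjusted p 0.00474), and passed with any library left out. The repressor gene Per1 rose from 51.2, 52.4 and 54.2 to 67.9, 63.7 and 60.0 CPM (0.28 ± 0.06, adjusted p 0.0368) and passed in 1 of the 6 fits with a library left out, that without BRD0705 replicate 3. The list's median log2 fold change was 0.16, 0.13 after the GC and length correction and 0.27 with the fibroblast covariate.

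On the sterol and fatty acid synthesis list, 2 of 34 genes rose, against 0.690% of all tested genes, and 0 fell. The median log2 fold change was 0.085. Cyp51, the lanosterol demethylase, was at 103, 103 and 109 CPM in control and 130, 123 and 132 CPM with BRD0705 (0.29 ± 0.05, adjusted p 0.0125). Nsdhl, a later enzyme of the same pathway, was at 65.3, 61.1 and 64.0 CPM in control and 81.4, 76.0 and 70.9 CPM with BRD0705 (0.26 ± 0.06, adjusted p 0.0483). The groups did not overlap for either gene, as for all 188 called genes and 20.2% of all tested genes. Neither passed without BRD0705 replicate 1 (adjusted p 0.0767 for Cyp51 and 0.259 for Nsdhl) or control replicate 2 (0.0647 and 0.197), nor Nsdhl without BRD0705 replicate 2 or control replicate 3. Squalene epoxidase, Sqle, was at 133 ± 6.38 and 153 ± 2.76 CPM (SD, n = 3 each, adjusted p 0.0764).

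Single members of the stress and growth lists passed, where 1.22% of all tested genes did. The chaperone cofactor Bag3 rose (log2 fold change 0.39 ± 0.07, adjusted p 0.0161) and the mitochondrial chaperonin Hspe1 fell (-0.32 ± 0.07, adjusted p 0.0274) among 21 heat shock genes. Haem oxygenase, Hmox1, rose from 119, 110 and 114 to 136, 143 and 141 CPM (0.29 ± 0.05, adjusted p 0.0136) as the only 1 of 18 oxidative stress genes to pass. Of the p53 targets Plk3, a stress-induced kinase, rose (0.36 ± 0.07, adjusted p 0.0185), and 23 of 24 did not pass. In the Myc network Mycn fell from 159, 159 and 152 to 132, 134 and 133 CPM (-0.24 ± 0.05, adjusted p 0.0263), while Myc was at 56.6 ± 4.77 and 66.0 ± 5.67 CPM (SD, n = 3 each, adjusted p 0.127). Each of these 5 calls was lost without BRD0705 replicate 1, control replicate 2 or control replicate 3, and all but that of Plk3 without BRD0705 replicate 2.

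Among known classes of GSK3 substrate, the microtubule-associated protein gene Map1b rose from 45.3, 45.7 and 46.6 to 61.1, 57.6 and 51.2 CPM (log2 fold change 0.30 ± 0.06, adjusted p 0.032). The other 19 of 20 genes on that list did not pass, where 1.22% of all tested genes did. Map7d1, another microtubule-binding protein, was at 123, 111 and 118 CPM in control and 153, 143 and 156 CPM with BRD0705 (0.36 ± 0.06, adjusted p 0.00525). Arpc4, a subunit of the actin-branching Arp2/3 complex, was at 163, 156 and 169 CPM and 207, 197 and 227 CPM (0.37 ± 0.06, adjusted p 0.00536), but its row can share reads with another gene. The adhesion gene Kirrel2 rose from 17.1, 14.3 and 18.2 to 25.7, 26.4 and 22.7 CPM (0.59 ± 0.09, adjusted p 0.00525). Kirrel2 and Map7d1 passed with any library left out, and Map1b without BRD0705 replicate 3 or control replicate 1.

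Ribosomal protein transcripts made the largest group among the falls. Cytosolic ribosomal proteins are the protein part of the translation machinery. Of their 89 tested genes, 12 fell (13.5%), against 0.534% of all tested genes. None rose, 77 did not pass, and 76 had a fold change below 0, while 49.0% of all tested genes were above 0. Genes called lower were abundant, with a median control level of 82.3 CPM against 16 CPM over all tested genes. Whether the high level of ribosomal protein transcripts adds to their calls was not tested. Rpl23, on mm10 chromosome 11 from 97777526 to 97782439, was at 757, 739 and 729 CPM in control and 506, 541 and 555 CPM with BRD0705 (log2 fold change -0.47 ± 0.05, adjusted p 0.000569), the lowest adjusted p of the comparison together with Csf1. Rpl11 was at 507, 444 and 447 CPM in control and 363, 335 and 385 CPM with BRD0705 (-0.37 ± 0.06, adjusted p 0.00867). Rps20 was at 509, 435 and 428 CPM and 328, 338 and 387 CPM (-0.38 ± 0.07, adjusted p 0.0105). Every BRD0705 library was below every control library for these genes. Groups were apart for all 188 called genes and for 20.2% of all tested genes. The falls of the 12 ran from -0.22 to -0.47.

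The median log2 fold change over the 89 ribosomal protein genes was -0.13, -0.12 after the GC and length correction and -0.13 with the fibroblast covariate. Of the 89 rows, 31 can share reads with an overlapping row, as Rpl23 does with Snora21, Rpl12 with Snora65 and Rps20 with Gm24016. Of the 58 without such an overlap, 7 fell, with a median of -0.13. Read sharing with processed copies elsewhere in the genome, such as that of Rps27 with Rps27rt, was not tested. By library, the list's median deviation from the control mean was -0.15, -0.21 and -0.05 for the BRD0705 replicates, and 0.05, -0.06 and 0.02 for the control replicates, so BRD0705 replicate 3 lay inside the control range. The number called was 27 without that replicate, 1 without BRD0705 replicate 1, 2 without BRD0705 replicate 2, and 5 without control replicate 2 or 3. For the 78 mitochondrial ribosomal proteins 0 passed in edgeR, against 6 in DESeq2 (3.10% of all genes) and 1 in limma voom (1.13%). Of those 78, 19 had an unadjusted p under 0.05, against 15.9% of all tested genes, and the median was -0.057. Without BRD0705 replicate 3 or control replicate 1, 2 passed.

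Transcripts of the respiratory chain fell in 7 of 86 cases, against 0.534% of all tested genes, and rose in 0. Of the 86, 69 were below 0, with a median log2 fold change of -0.14, while 49.0% of all tested genes were above 0. By library, the list's median deviation from the control mean was -0.17, -0.16 and -0.033 for BRD0705 replicates 1 to 3. In the control replicates it was 0.004, -0.033 and 0.023, so BRD0705 replicate 3 lay level with control replicate 2. Ndufb10, a subunit of complex I, was at 41.3, 36.3 and 39.1 CPM in control and 31.1, 26.0 and 30.5 CPM with BRD0705 (-0.41 ± 0.07, adjusted p 0.0103). Atp5j, a subunit of the ATP synthase, fell from 76.5, 81.5 and 77.7 to 57.9, 62.7 and 57.6 CPM (-0.40 ± 0.06, adjusted p 0.00525). Cox7a2, of cytochrome oxidase, fell from 81.0, 84.7 and 85.0 to 64.2, 64.7 and 67.9 CPM (-0.35 ± 0.06, adjusted p 0.00587). Cox4i1 and Cox6c, of the same complex, fell by 0.32 ± 0.06 and 0.28 ± 0.06 (adjusted p 0.0177 and 0.0351). Ndufb4c, which fell most of the 7 (-0.82 ± 0.14, adjusted p 0.00928), is annotated as a processed pseudogene. The list's count was 15 without BRD0705 replicate 3, 1 without BRD0705 replicate 1, 3 without BRD0705 replicate 2 or control replicate 3, and 4 without control replicate 2.

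Transcripts of the mitochondrial genome did not follow. Of the 15 tested, 0 passed in edgeR, DESeq2 or limma voom, 2 had an unadjusted p under 0.05, both above 0, and 1 passed without BRD0705 replicate 2. Their median deviations were 0.30, 0.04 and -0.15 in BRD0705 replicates 1 to 3. mt-Co1 was at 4579 CPM in control and 4783 CPM with BRD0705 (log2 fold change 0.06 ± 0.08, adjusted p 0.777). Slirp, an RNA-binding protein that stabilises mitochondrial messenger RNA, did fall, from 38.6, 38.2 and 41.1 to 29.3, 29.1 and 26.9 CPM (-0.47 ± 0.07, adjusted p 0.00487), with any library left out. Timm22, the channel of the inner membrane protein translocase, fell from 17.8, 14.8 and 15.7 to 11.2, 11.8 and 13.2 CPM (-0.41 ± 0.09, adjusted p 0.0404), a call kept in 1 of the 6 fits, that without BRD0705 replicate 3.

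**Figure D4:**
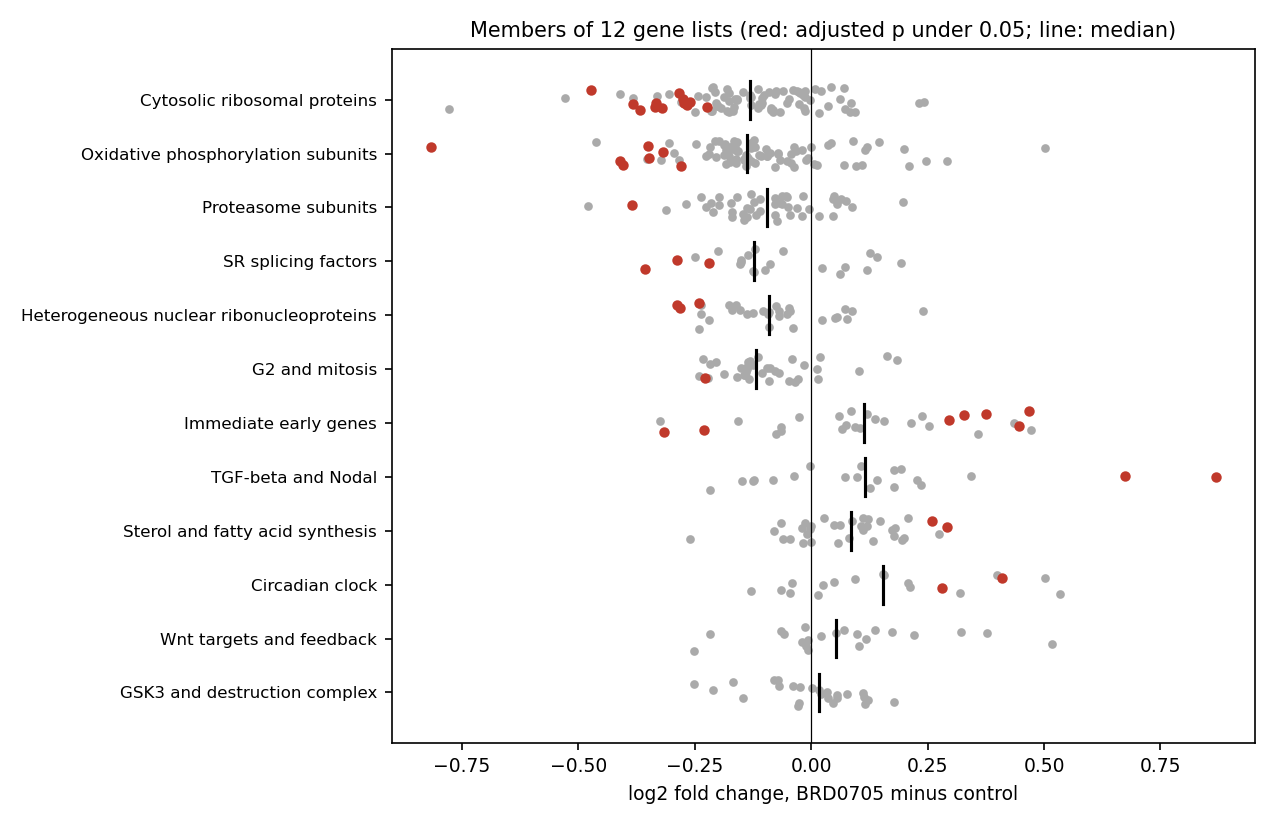
Log2 fold change of BRD0705 minus control (x axis) for every tested member of 12 gene lists (y axis). Points are genes, red where the adjusted p was under 0.05, and black lines are list medians, from -0.14 for oxidative phosphorylation to 0.16 for the circadian clock.

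Factors that process and transcribe messenger RNA were among the falls. Of 22 SR splicing factors, which guide exon choice, 3 fell and 0 rose, with a median log2 fold change of -0.12. Over all tested genes 0.534% fell. Srsf9 was at 47.9, 44.6 and 42 CPM in control and 34.8, 33.8 and 36.4 CPM with BRD0705 (-0.36 ± 0.08, adjusted p 0.036). Srsf5 fell from 216, 224 and 224 to 181, 176 and 187 CPM (-0.29 ± 0.05, adjusted p 0.0118), and Srsf3 from 193, 211 and 213 to 170, 179 and 180 CPM (-0.22 ± 0.05, adjusted p 0.0499). Of 31 heterogeneous nuclear ribonucleoproteins, which coat nascent transcripts, 3 fell and 0 rose, with a median of -0.091. Hnrnpa1, the most abundant of the 3, was at 906, 893 and 955 CPM in control and 757, 775 and 799 CPM with BRD0705 (-0.24 ± 0.05, adjusted p 0.0251). Hnrnpr fell by 0.28 ± 0.07 and Taf15 by 0.29 ± 0.06 (adjusted p 0.0426 and 0.0239). For both lists the count was 0 without BRD0705 replicate 1 or 2 or control replicate 2 or 3, while the ribonucleoproteins had 6 without control replicate 1.

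The core spliceosome protein gene Snrpf fell from 150, 127 and 150 to 107, 95.8 and 121 CPM (log2 fold change -0.40 ± 0.09, adjusted p 0.0351), and Khdrbs3, a regulator of splicing, by 0.37 ± 0.08 (adjusted p 0.036). Snrpf passed without BRD0705 replicate 3 or control replicate 2, and Khdrbs3 in 0 of the 6 fits. Of 41 RNA polymerase II subunits and general factors, 3 fell and 0 rose, Taf15 counting here too, where 0.534% of all tested genes fell. In each fit without BRD0705 replicate 1 or 2 or control replicate 2 or 3, 1 fell. Gtf2e2, which encodes a subunit of the initiation factor TFIIE, lies on mm10 chromosome 8 from 33731914 to 33777173 and was at 51.6, 46.7 and 44.8 CPM in control and 34.7, 34.4 and 37.2 CPM with BRD0705 (-0.43 ± 0.06, adjusted p 0.00474). The groups were apart, as for all 188 called genes and 20.2% of all tested genes. The call held with any library left out. Gtf2a1, of TFIIA, fell from 33.8, 41.2 and 38.2 to 30.3, 30.4 and 29.7 CPM (-0.32 ± 0.07, adjusted p 0.036) and kept its call in 1 of 6 fits, that without control replicate 1. SR and ribonucleoprotein genes had a median GC content of 44.7% and 46.7%, against 50.7% over all tested genes. After the GC and length correction their medians were -0.078 and -0.075, with 2 called on each list.

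Protein synthesis, turnover and division lists leaned lower with few calls, where 0.534% of all tested genes were called lower. Psmb7, a catalytic subunit of the proteasome, was at 108, 106 and 101 CPM in control and 77.4, 87.4 and 76.2 CPM with BRD0705 (log2 fold change -0.38 ± 0.06, adjusted p 0.00525), the only call among 48 proteasome genes, whose median was -0.094. Eif2s1, the α subunit of initiation factor eIF2, fell from 233, 229 and 237 to 189, 191 and 190 CPM (-0.30 ± 0.05, adjusted p 0.00928), and Eif3e by 0.24 ± 0.05 (adjusted p 0.0351), out of 54 initiation factors. Neither passed without BRD0705 replicate 1 or control replicate 3. Of 36 genes of the G2 phase and mitosis only the kinetochore gene Cenpf fell, from 159, 170 and 173 to 136, 151 and 141 CPM (-0.23 ± 0.05, adjusted p 0.0479), although 18 were lower at an unadjusted p under 0.05, against 8.08% of all genes. That list's median was -0.12, and -0.080 after the GC and length correction. Cenpf kept its call only in the fit without control replicate 1, and Psmb7 held it in 5 of 6 fits, with an adjusted p of 0.0502 without BRD0705 replicate 1.

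Noncoding host genes of small nucleolar RNAs had the lowest median of the lists, -0.20 over 18 tested genes, with 15 below 0. Over all tested genes 49.0% were above 0. Snhg6 fell from 14, 14.2 and 13 to 9.09, 9.73 and 11.0 CPM (log2 fold change -0.46 ± 0.10, adjusted p 0.0351), and passed in 1 of the 6 fits, that without BRD0705 replicate 3. Snhg5 was at 33.6 and 27.8 CPM (-0.27 ± 0.08, adjusted p 0.0779) and Gas5 at 70.1 and 59.4 CPM (-0.24 ± 0.08, adjusted p 0.123) in control and BRD0705. Of the 18 rows, 17 can share reads with another row. The cold-inducible RNA-binding gene Cirbp fell from 30.2, 31.3 and 27.9 to 23.2, 24.2 and 25.3 CPM (-0.30 ± 0.07, adjusted p 0.0426), a call kept in the fit without BRD0705 replicate 3 alone.

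**Figure D5:**
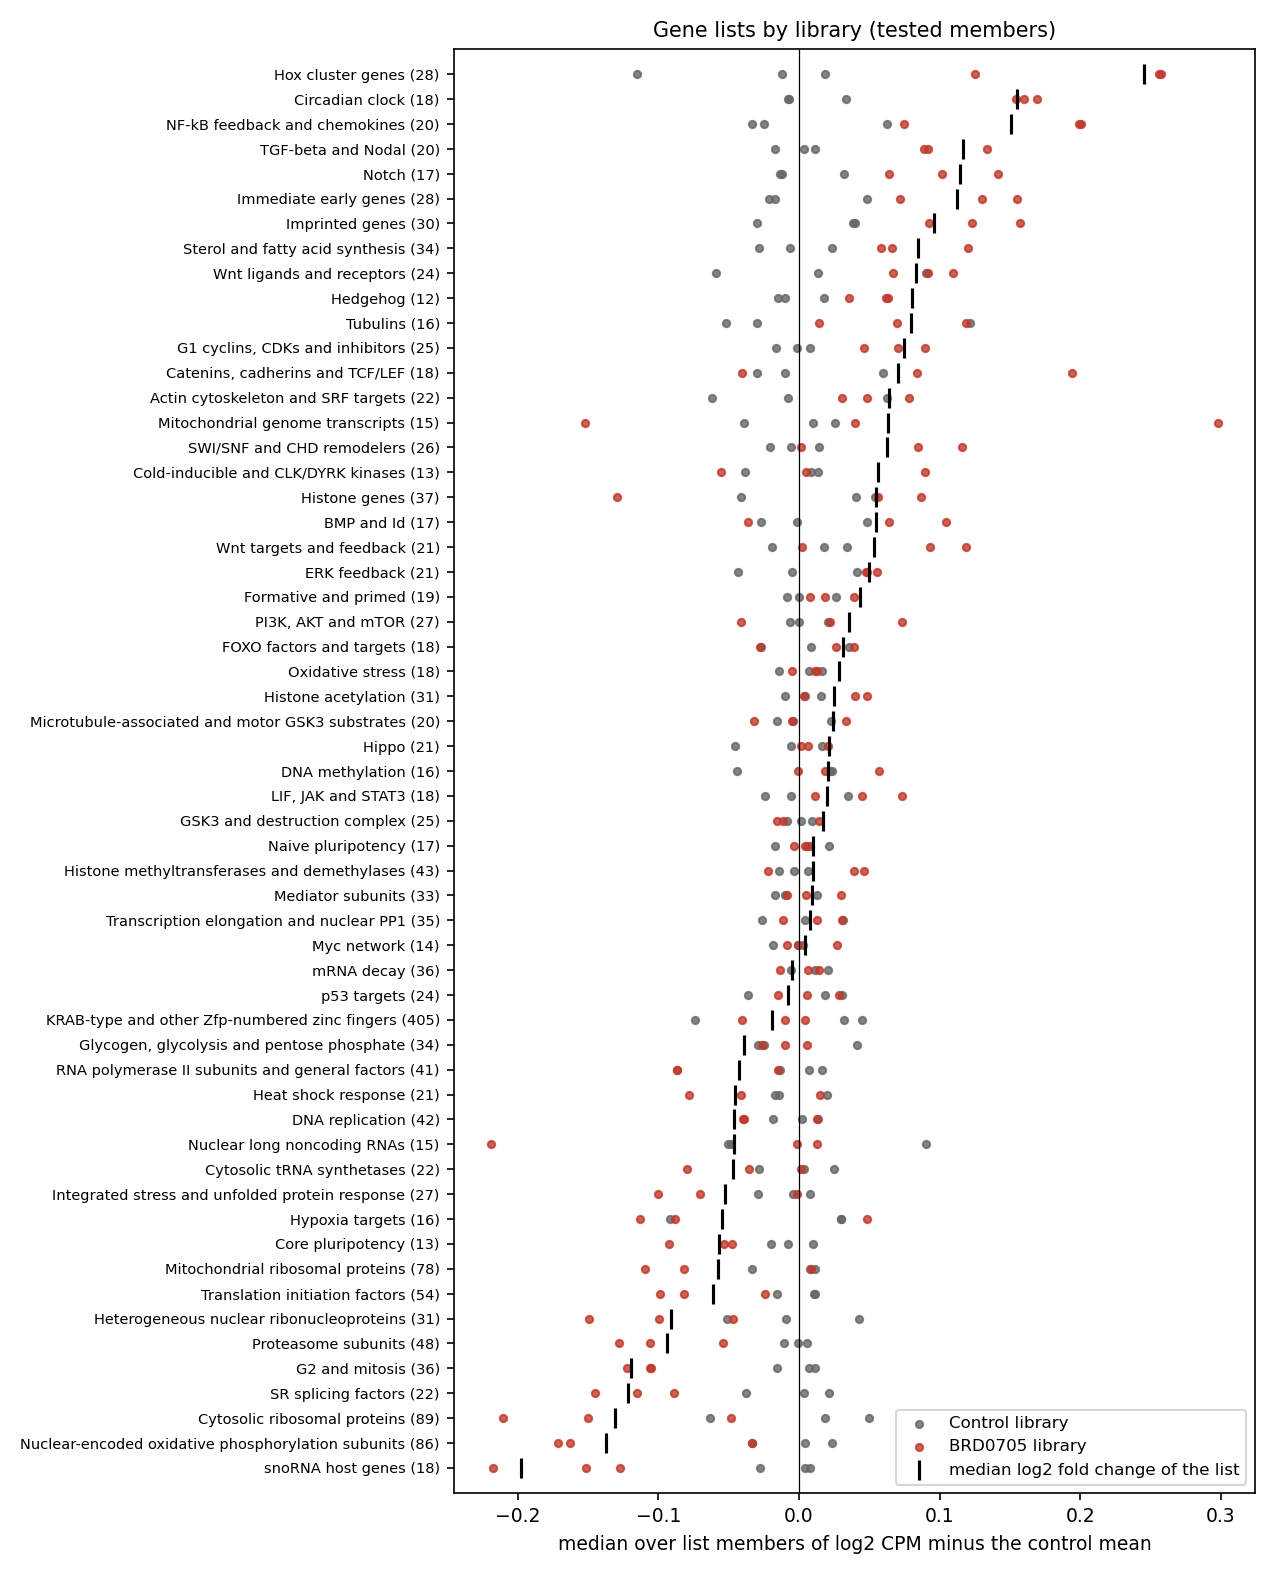
Median over the tested members of each gene list of log2 CPM minus the control mean (x axis), for each control and BRD0705 library (points), with the list's median log2 fold change as a black bar. Lists (y axis) have at least 12 tested genes, the number in parentheses. Host genes of small nucleolar RNAs stand lowest at -0.20, with all 3 BRD0705 libraries below the control libraries (-0.13, -0.22 and -0.15), and the 28 Hox genes highest at 0.25.

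Several pathways tied to GSK3 had no gene past the test. Of the 59 lists, 32 had 0 members called. Over all tested genes 1.22% were called, so 0 calls in a short list does not set it apart. An unadjusted p under 0.05 was held by 15.9% of all tested genes, 7.77% being higher with BRD0705. The 25 genes of GSK3 and the β-catenin destruction complex (Axin, Apc, casein kinase and relatives) had a median log2 fold change of 0.017, and 1 had an unadjusted p under 0.05. The 21 Wnt targets and feedback genes had a median of 0.054, and 4 had such a p, all higher. Axin2, the standard target of β-catenin, was at 13.6 ± 0.516 CPM in control and 13.8 ± 0.857 CPM with BRD0705 (SD, n = 3 each, adjusted p 0.948). DESeq2 and limma voom also called 0 in both lists, and in the 24 Wnt ligands and receptors. Of 18 catenins, cadherins and TCF factors 0 passed in edgeR or limma voom and 1 in DESeq2, and 6 were higher at an unadjusted p under 0.05. Tcf7l1 was at 385 ± 29.2 and 421 ± 63.3 CPM (adjusted p 0.53), and Jup, the gene of plakoglobin, at 352 ± 15.9 and 396 ± 21.3 CPM (adjusted p 0.144).

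Pluripotency genes did not pass either. Of 13 core genes, 0 were called in edgeR or limma voom and 3 in DESeq2. A fold change below 0 was found for 10 of 13 (median -0.057), while 49.0% of all tested genes were above 0. At an unadjusted p under 0.05, 4 of the 13 were lower and 2 higher, against 8.08% and 7.77% of all tested genes. Pou5f1 was at 945 CPM in control and 917 CPM with BRD0705 (adjusted p 0.742), and Nanog at 549 and 535 CPM (adjusted p 0.794). Sox2, the lowest of the list, was at 223, 245 and 236 CPM in control and 194, 207 and 210 CPM with BRD0705 (log2 fold change -0.21 ± 0.05, adjusted p 0.0601). Utf1 was the highest (0.18 ± 0.06, adjusted p 0.132). Of 17 naive state genes, 0 were called by any of the 3 tools, and 2 had an unadjusted p under 0.05, with a median of 0.010. Klf4, a target of LIF signalling, was at 165 and 148 CPM (log2 fold change -0.15 ± 0.05, adjusted p 0.171). The lists of LIF and STAT3 (18 genes), PI3K and mTOR (27), Hippo (21), BMP (17) and Hedgehog genes (12) also had 0 calls in edgeR, DESeq2 and limma voom. In that order, 4, 6, 3, 2 and 2 genes had an unadjusted p under 0.05, against 15.9% of all tested genes. With 1.22% of all tested genes called in edgeR, 0 calls in such short lists does not set them apart. Of 34 genes of glycogen and glucose use, 0 passed in edgeR and 2 in DESeq2, and 8 had such a p.

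Calls also followed the base composition of the transcripts. The median GC content was 58% for genes called higher, 46.8% for genes called lower and 50.7% over all tested genes. Of the 1663 genes above 58% GC, 52 were higher (3.13%) and 0 lower, and of the 1307 below 42% GC, 0 were higher and 12 lower (0.918%). In the class above 58%, the median deviation from the control mean was 0.10, 0.05 and 0.10 in BRD0705 replicates 1 to 3, 0.06, -0.04 and -0.01 in the control replicates, and 0.014, -0.0077 and -0.0032 in the CHIR replicates. After a correction of each library for GC content and length, 127 genes passed (0.838%), and 95 of the 185 called genes with a GC value were among them, 56 higher and 39 lower. Lefty1, Pmepa1, Dusp1, Csf1, Ccl7, Ngfr, Bhlhe40, Rpl23, Slirp and Gtf2e2 were kept, with adjusted p from 0.000315 to 0.00735. Among those that were not are Junb, Nr4a1, Klf6, Per1, Zfp469, Hnrnpa1, Srsf3, Cenpf and Snrpf (adjusted p 0.0533 to 0.175), whose corrected log2 fold changes kept their sign. Zfp469 went from 0.70 to 0.61, Nr4a1 from 0.30 to 0.23, Cenpf from -0.23 to -0.20 and Snrpf from -0.40 to -0.29. Rps27rt was not kept either, and went from -0.49 to -0.29 (adjusted p 0.226). Whether the trend comes from the compound was not tested.

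Differences from CHIR were tested directly, in a contrast that uses the same BRD0705 libraries but not the controls. The labels give no dose for either compound, so the doses cannot be matched. Over all genes 1194 differed (7.77%), 738 higher (4.80%) and 456 lower (2.97%) with BRD0705 than with CHIR. The number was 616 and 756 without BRD0705 replicates 1 and 2, and 675 and 617 without CHIR replicates 1 and 2. Scaling by library size alone gave 912 and 239. The genes below were chosen for their change from control in the same BRD0705 libraries. Lefty1 was at 33.1, 27.3 and 25.1 CPM with CHIR, a log2 difference of BRD0705 minus CHIR of 0.59 ± 0.10 (SE, adjusted p 0.00102). Dusp1 was at 96.8, 93.8 and 98.3 CPM with CHIR (difference 0.35 ± 0.06, adjusted p 0.000992). Pmepa1, Kirrel2, Ngfr, Jund, Spsb1, Map1b and Nsdhl were also higher with BRD0705 than with CHIR (adjusted p 0.000311 to 0.0217). For each of these genes the CHIR mean stood closer to the control mean than to that of BRD0705.

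For other genes the difference between the compounds did not pass. With CHIR, Csf1 was at 95.5, 99.0 and 91.0 CPM (difference of BRD0705 minus CHIR 0.13 ± 0.06, adjusted p 0.228), Ccl7 at 61.0, 59.0 and 54.1 CPM (-0.17 ± 0.07, adjusted p 0.126) and Bhlhe40 at 123, 144 and 135 CPM (-0.12 ± 0.06, adjusted p 0.238). Snai1 was at 21.2, 25.1 and 24.1 CPM (-0.02 ± 0.10, adjusted p 0.941) and Fosl1 at 24.9, 25.2 and 24.0 CPM (-0.29 ± 0.09, adjusted p 0.0501). A difference that misses the threshold does not show that the compounds act alike. Among the falls, Rpl23 was at 612, 669 and 637 CPM with CHIR, between the other groups, and lower with BRD0705 than with CHIR (-0.26, adjusted p 0.00505). Eif3e, Hnrnpr and Taf15 were also lower than with CHIR (adjusted p 0.00352, 0.00751 and 0.0188), their CHIR means being 187, 79.3 and 96.6 CPM. Cirbp stood on opposite sides of control, at 37.5, 35.4 and 38.7 CPM with CHIR (-0.62, adjusted p 2.96e-05). Harbi1, a transposase-derived gene, was lowest with CHIR at 9.47, 9.63 and 9.89 CPM, against 14.9, 16 and 14.3 in control and 11.6, 12.1 and 11.4 with BRD0705.

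Among the called genes, the largest fold changes belonged to predicted genes and are uncertain. Gm49450 was at 56.3, 20.4 and 66.5 CPM in control and 5.56, 10.4 and 2.42 CPM with BRD0705 (log2 fold change -3.0 ± 0.42, adjusted p 0.00347). Its row can share reads with the tubulin genes it overlaps, where Tuba1b was at 3582 CPM in control and 4112 CPM with BRD0705 (adjusted p 0.166). Gm20431 was at 9.56, 9.59 and 12.1 CPM in control and 37.5, 19.6 and 18.7 CPM with BRD0705 (1.28 ± 0.28, adjusted p 0.0351), BRD0705 replicate 1 standing well above the others. Gm10143 and Gm7292 rose by 1.48 ± 0.33 and 0.95 ± 0.17, and the rows 2810047C21Rik1 and Gm20390 fell by 1.77 ± 0.40 and 0.71 ± 0.12. Of the 489 pseudogenes tested 0 rose and 6 fell (1.23%), against 0.690% and 0.534% of all tested genes. Among the 188 called genes 21 can share reads with another row, as can 1456 of the 15366 tested genes. A gene on the other strand is overlapped by 85 of the 188, a number not counted over all tested genes. Whether counting used strand is not given in the sources used here.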

How the data were processed

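RNA sequencing measured transcripts in 9 libraries of mouse embryonic stem cells labelled beta-catenin-/-, 3 per group, and groups came from the labels. The authors deposited whole-number read counts per gene symbol. Per the submitters' processing notes, RSEM, DESeq2 and mm10 were used, so the counts may be rounded estimates; aligner, annotation and strand are not given in the sources used here. Per the labels' protocols, total RNA was depleted of ribosomal RNA; the molecule field says polyA RNA. The authors also deposited a table of normalized counts, which was not used here.

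The test was that of edgeR 4.0.16 under R 4.3.3 (TMM scaling, filterByExpr with a minimum count of 10, quasi-likelihood F test, all 9 libraries in 1 fit of 3 group means, 6 residual degrees of freedom, Benjamini-Hochberg adjusted p under 0.05). Library sizes behind CPM were TMM-scaled; for log2 CPM, 2 prior counts were added. Code was tested on simulated data without a GC trend, where 7.4% of calls were false. With a GC trend put into the BRD0705 libraries and no other change, 779 of 15366 genes were called. After the GC and length correction 2 of 15149 were. The size of that trend was set in advance and not taken from these libraries. Depth was 17359422 to 20773337 counts per library; the common dispersion was 0.003563.

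Length and GC content came from GENCODE vM39 (98.6% of tested genes), positions and promoters from RefSeq GRCm38.p6, the assembly of mm10. Promoters were found for 82 of the 106 higher, 55 of the 82 lower and 11438 of all tested genes.

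Members, gene lists and markers were chosen with earlier results of these data known. Named were Gsk3a, Gsk3b and Ctnnb1; among called genes of at least 2 CPM, with groups apart, no predicted symbol and no row overlapping on the same strand, the 14 largest rises and 14 largest falls; the 6 other genes of lowest p; up to 6 called members a list, or 3 of highest level where fewer than 2 were called; the 3 largest rises and falls of predicted genes; and cell type markers. Other list members that did not pass, and Tuba1b, were chosen after their values were seen. Some named genes are not reported here. Lists are given by counts and medians, with no set test.

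Alternatives were a replicate block, DESeq2 1.42.0, limma 3.58.1 voom, other scalings and filters, a GC and length correction, the fibroblast score as covariate, only the groups compared, no read-sharing rows, and leaving out each library. Genes without an adjusted p in DESeq2 stayed in the total behind its percentages.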

Additional observations from a re-analysis of the deposited data

How the results depend on the processing

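The 188 genes that differed from control became 477 with DESeq2 (282 higher and 195 lower), 609 without a low-count filter (347 and 262), 111 with the GC and length correction and the replicate block together, and 0 with the fibroblast marker score as a covariate. Leaving out each library gave 21 to 305 genes against control and 616 to 923 against CHIR, where all libraries gave 1194. The cause of these shifts was not tested, and the fits in the last case also had fewer libraries. The other 8 alternatives kept the count against control between 127 and 248. Replicate numbers are shared by the groups in the labels. Same-numbered BRD0705 and control libraries correlated in their deviations by 0.0155 to 0.0802 (mean 0.0574), and 0 of the 3 pairs passed 0.1. Differently numbered pairs of these groups ran from -0.116 to 0.0465 (mean -0.0287). Over all groups the means were -0.00119 and 0.000628. The numbers were not taken to pair samples. With the replicate block 222 genes passed against control and 1177 against CHIR. No named gene that passed changed its sign under any alternative that gave it a value. Of 77 named genes past the threshold, 65 of the 66 with an adjusted p in DESeq2, 71 in limma voom, 55 with the GC and length correction and 18 without BRD0705 replicate 1 passed again. The fibroblast score difference ranged from 0.198 to 0.280 over its alternatives. The median control level was 57.3 CPM for genes called higher and 82.3 CPM for genes called lower, against 16 CPM over all tested genes.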
